A study of Homo sapiens with 96 samples.

Results

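The transcripts described here are the long noncoding RNAs that A375 cells carry under systematic names. They are intergenic RNAs (LINC followed by a number), RNAs antisense to a named gene (-AS), RNAs read from an intron of a named gene (-IT) and host transcripts of microRNAs (MIR...HG). Of the 44659 entries of the count table, 3748 had such a name, and 1306 of these had no count in any library. The 276 members were selected on their raw counts, as those with a mean of at least 20 counts over the 6 vehicle libraries harvested at 0 h, with 3 libraries for each of the 2 pretreatments. They comprised 103 LINC, 153 AS, 8 IT and 12 microRNA host entries. The median of this mean was 45.6 counts (range, 20 to 1291.8), and 148 members lay under 50 counts. Just inside the minimum were FGF14-AS2 (20 counts), BNC2-AS1 (20.2) and RGMB-AS1 (20.7), and just outside were LINC00957, IDH1-AS1 and ANP32A-IT1 (19.8 each). Because these 6 libraries chose the members, no tested comparison below contrasts them. They enter the shared estimate of spread, the choice of the genes that scale the triptolide arms, and the few values said to rest on vehicle at 0 h. Of the members, 193 met the minimum in both pretreatments, 66 met it through MAPKi cells alone and 17 through DMSO cells alone, so the last 83 entries owe their place to the condition in which they were high. All 276 passed the filter on low counts, and 41 were at 0 in at least 1 library.

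A375 is a BRAF-mutated human melanoma cell line. Cells were cultured for 18 h with DMSO, or with 500 nM vemurafenib (a BRAF inhibitor) and 500 nM cobimetinib (a MEK inhibitor), a combination termed MAPKi. They then received vehicle, cycloheximide at 100 µg/ml to stop translation, triptolide at 25 µM to stop transcription, or both, and were harvested at 0, 1, 3 and 5 h, which gave 32 groups of 3 libraries. Cytoplasmic RNA was sequenced from its 3′ ends, so transcripts retained in the nucleus were sampled only as far as they reached this fraction. Nuclear RNAs were nonetheless counted at high levels, with MALAT1 at 5734 CPM and NEAT1 at 364 CPM in DMSO vehicle libraries at 0 h. How much nuclear RNA the fraction held was not tested. In the combined arm cycloheximide preceded triptolide by 5 min. The replicates' origin was not stated, so p-values measure the spread between libraries, which may be technical. All groups were 1 cell line, and the 4 harvest times were parallel batches of cells.

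Long noncoding RNAs are transcribed and often spliced and polyadenylated like mRNAs, but they encode no known protein. Antisense transcripts overlap or face a gene on the other strand, intronic transcripts lie within a host gene's intron, and microRNA host transcripts are cut in the nucleus to release hairpins that become microRNAs. MicroRNAs pair with target mRNAs mainly through their seed (bases 2 to 8). Spliced noncoding RNAs that reach the cytoplasm can be bound by ribosomes, and some are removed by nonsense-mediated decay, a pathway that needs translation.

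The microRNAs encoded within the host transcripts on which the results below turn are shown with the seed in capitals (RefSeq, GRCh38.p14). The QuantSeq counts measured the host transcripts, not these mature microRNAs.
hsa-miR-221-3p in MIR222HG: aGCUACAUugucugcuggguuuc
hsa-miR-222-3p in MIR222HG: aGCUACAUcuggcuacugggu
hsa-miR-17-5p in MIR17HG: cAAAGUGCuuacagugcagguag
hsa-miR-20a-5p in MIR17HG: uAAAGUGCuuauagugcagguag
hsa-miR-19a-3p in MIR17HG: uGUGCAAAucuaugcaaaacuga
hsa-miR-92a-3p in MIR17HG: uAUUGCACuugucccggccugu
hsa-miR-100-5p in MIR100HG: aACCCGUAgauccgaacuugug
hsa-miR-99a-5p in MIR99AHG: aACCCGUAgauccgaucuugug
hsa-miR-125b-5p in MIR100HG: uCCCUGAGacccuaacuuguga
hsa-let-7a-5p in MIR100HG and MIRLET7BHG: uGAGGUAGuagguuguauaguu
hsa-let-7b-5p in MIRLET7BHG: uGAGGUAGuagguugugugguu
hsa-let-7c-5p in MIR99AHG: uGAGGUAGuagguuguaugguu
hsa-miR-34a-5p in MIR34AHG: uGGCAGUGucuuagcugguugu
hsa-miR-193b-3p in MIR193BHG: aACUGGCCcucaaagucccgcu
miR-221-3p and miR-222-3p share the seed GCUACAU. miR-17-5p and miR-20a-5p share AAAGUGC. miR-100-5p and miR-99a-5p, from the hosts MIR100HG and MIR99AHG, share ACCCGUA, and the same hosts with MIRLET7BHG all hold a let-7 with the seed GAGGUAG.

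Library totals ranged from 2381351 to 12520154 counts (median, 7143396), and the shallowest library was replicate 2 of MAPKi cells in triptolide at 0 h. All 5 MAPK target genes examined (DUSP6, SPRY2, SPRY4, ETV4 and ETV5) were lower in the MAPKi libraries. DUSP6 was at 358.5 ± 54.6 CPM in DMSO and 1.07 ± 0.66 CPM in MAPKi vehicle libraries at 0 h (SD, n = 3). The summed level of 7 melanocyte lineage markers ranged from 619 to 3824 CPM across libraries, although MLANA was near 0 and TYR was under the filter. Keratinocyte markers summed to at most 4.69 CPM, fibroblast markers to at most 6.47, immune markers to at most 31.1 and endothelial markers to at most 0.30. In bulk RNA, fewer cells holding a transcript and less of it per cell cannot be told apart.

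Together the 276 noncoding RNAs made up a small part of the cytoplasmic 3′ ends, and their share moved with each treatment. At 0 h they held 0.326% ± 0.004 of the counts of DMSO vehicle libraries and 0.427% ± 0.004 of those of MAPKi libraries (SD, n = 3), although these 0 h libraries also chose the members. At 5 h the vehicle shares were 0.341% ± 0.009 and 0.422% ± 0.006, in libraries that the choice did not use. After 5 h of cycloheximide the share was 0.386% ± 0.004 in DMSO cells and 0.474% ± 0.005 in MAPKi cells. After 5 h of triptolide it was 0.230% ± 0.005 and 0.292% ± 0.011, and with both inhibitors it was 0.267% ± 0.003 and 0.345% ± 0.016. In each pretreatment the 5 h libraries of the 4 arms did not overlap, in the order triptolide, both, vehicle and cycloheximide from low to high.

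**Figure D1:**
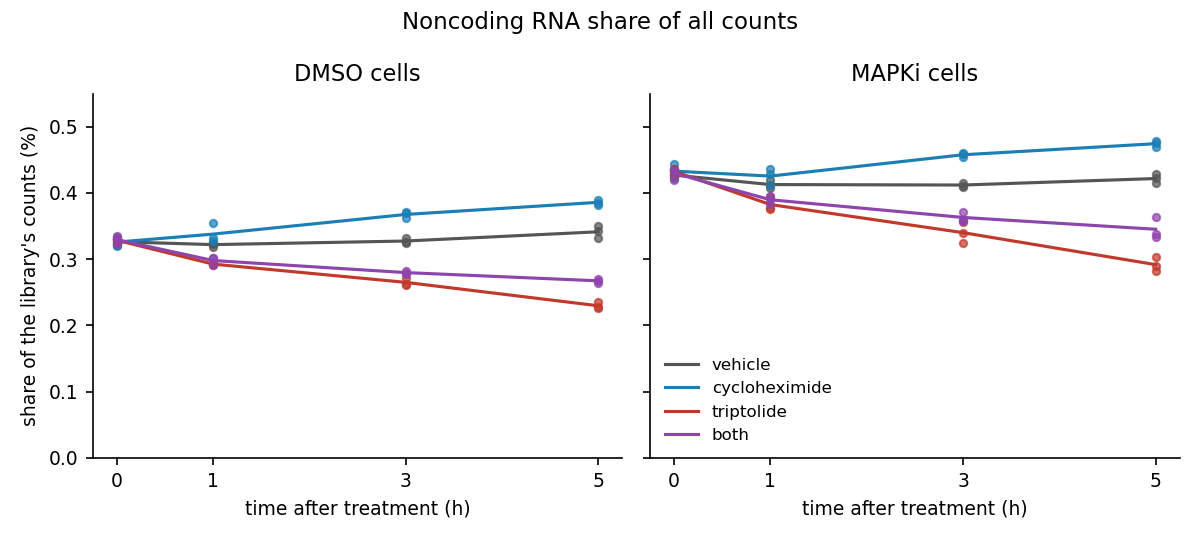
Share of each library's counts (%, linear axis from 0) held by the 276 noncoding RNAs against time (h) for DMSO cells (left) and MAPKi cells (right). Points are libraries and lines are means of 3; after 5 h the triptolide libraries lie lowest (mean 0.230% and 0.292%) and the cycloheximide libraries highest (0.386% and 0.474%).

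Few of these RNAs were abundant. On the CPM scale (counts relative to the library total, with totals scaled by TMM), LINC02780, an intergenic transcript at chr1:3976133-4012704 (GRCh38, plus strand), measured 210, 226 and 211 CPM in DMSO vehicle libraries at 1 h and 209, 211 and 205 CPM in MAPKi libraries. The groups overlapped, and it was the member with the highest level in DMSO cells at that time. OIP5-AS1, which lies opposite OIP5 and is known as a cytoplasmic RNA, followed with 98.1, 79.9 and 80.6 CPM in DMSO and 119, 86.9 and 102 CPM in MAPKi. Levels were not compared between genes per length, since a 3′-end count does not scale with transcript length. Of 247 members found by symbol in GENCODE v44, 152 had an exon overlapping a gene on the opposite strand, 41 overlapped another gene on their own strand and 84 overlapped neither. Whether counting used strand was not stated in the sources used here, so reads of the first group may be shared with the gene opposite.

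MAPKi raised more of the noncoding RNAs than it lowered. Among the 193 members that met the count minimum in both pretreatments, 98 passed the test as higher in the MAPKi vehicle libraries at 1, 3 and 5 h and 38 as lower. Among all 14948 genes tested, 33.4% were higher and 31.3% lower, and among the 10677 other genes at the same count minimum 3558 were higher and 4188 lower. The median log2 change was 0.34 over the 193 and 0.05 over all genes. The choice favoured a rise in the 66 RNAs chosen through MAPKi cells alone (58 higher, 0 lower). It favoured a fall in the 17 chosen through DMSO cells alone (0 higher, 14 lower). With these RNAs included, 156 members were higher and 52 were lower. The summed melanocyte lineage markers moved with the same pretreatment, from a median of 915 CPM over DMSO libraries to 2882.5 CPM over MAPKi libraries. The largest change among them was in DCT, from 54.9 to 2131 CPM in vehicle libraries at 0 h. There SOX10 went from 237 to 336 CPM and MITF from 352 to 487 CPM, while S100B fell from 301 to 215 CPM. Of the 6 that were tested, 5 were higher and 1 lower. At far lower levels the immune markers went from 4.02 to 15.9 CPM, the fibroblast markers from 0.894 to 3.52 CPM and the keratinocyte markers from 0 to 1.62 CPM. Of the immune markers, CD68 went from 2.54 to 15.6 CPM in vehicle libraries at 0 h, and PTPRC from 0.0691 to 0 CPM. The part of these markers in the result was not tested. By kind, among the members at the minimum in both pretreatments, 65 AS members were higher and 17 lower of 111, 27 LINC members were higher and 16 lower of 65, 2 IT members were higher and 3 lower of 8, and 4 host transcripts were higher and 2 lower of 9. Among the 57 of them with no annotated overlap on either strand, 25 were higher and 14 lower.

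**Figure D2:**
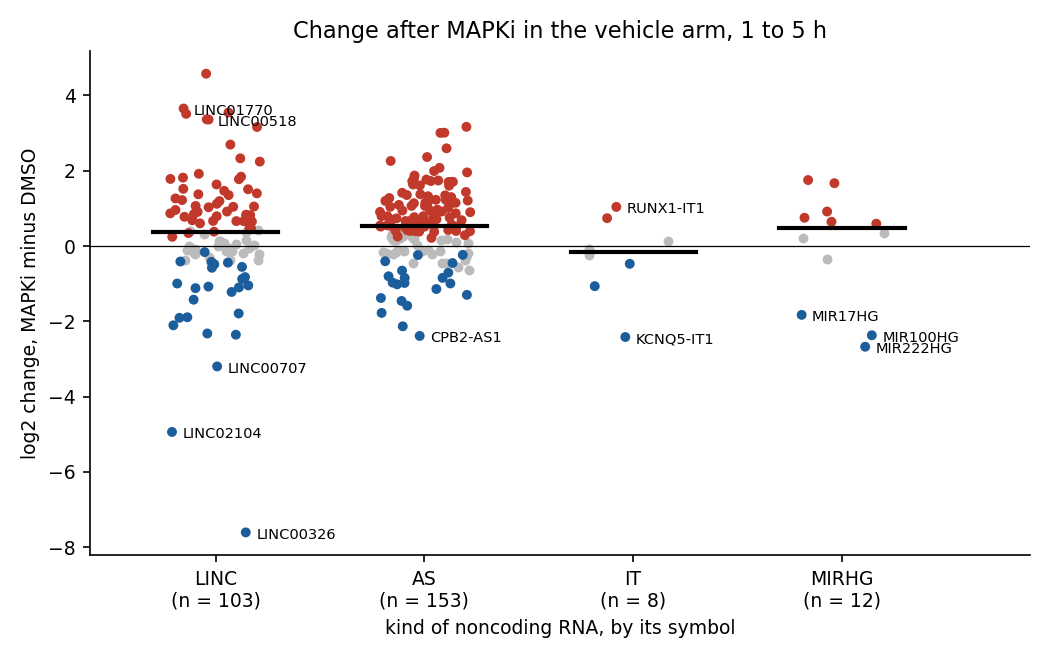
Log2 change between MAPKi and DMSO vehicle libraries at 1, 3 and 5 h for each of the 276 noncoding RNAs, by kind; red points passed the test as higher, blue as lower, grey did not pass, and bars are medians. All members are drawn, including those that met the count minimum in 1 pretreatment alone, whose choice favoured 1 side of 0. Of the 111 AS members at the minimum in both, 65 were higher and 17 lower. MIR222HG, MIR100HG, MIR17HG and KCNQ5-IT1 lie well below 0, and the fitted values of LINC00326 and LINC02104 rest on MAPKi libraries at or near 0 counts.

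The intergenic RNAs with the largest rises all met the count minimum through MAPKi cells alone, so their levels are a description. LINC00518 lies at chr6:10429255-10435015 (GRCh38, minus strand), opposite an exon of MIR5689HG, and is used as a melanoma marker. It measured 1.08, 3.04 and 1.52 CPM in DMSO vehicle libraries at 1 h and 17.8, 11.1 and 22.9 CPM in MAPKi libraries. At 5 h the values were 1.58, 1.91 and 2.42 against 26.9, 26.7 and 32.3 CPM. Every MAPKi library lay above every DMSO library at these times. LINC01770, at chr1:1430539-1434573 (minus strand), had a mean of 0.418 CPM in DMSO and 8.09 CPM in MAPKi at 1 h. LINC02614 was at 5.85 CPM at 1 h and 16.3 CPM at 5 h in MAPKi vehicle libraries, against 0.593 and 1.58 CPM in DMSO. LINC01583 and LINC01914 were the other members among the 5 largest rises that had at least 3 counts per library on both sides, with log2 differences of 3.55 and 3.36.

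The members next described were lower in MAPKi cells and met the count minimum through DMSO cells alone, so that they too are a description. For the intergenic RNA LINC00707 the values were 18.8, 18.3 and 22 CPM in DMSO vehicle libraries at 1 h and 2.81, 3.91 and 2.17 CPM in MAPKi libraries, with no overlap and a log2 difference of -3.20. CPB2-AS1, antisense to CPB2, measured 7.54, 8.65 and 6.43 CPM against 0.826, 1.3 and 2.99 CPM, a log2 difference of -2.39. LINC00326, named after its values were seen, was at 10.3, 9.01 and 9.24 CPM in DMSO cells and at 0 counts in all 3 MAPKi vehicle libraries at 1 h and at 5 h. At 3 h its 3 MAPKi libraries held 0.122, 0.887 and 0 CPM. No fold is given for it, since the MAPKi mean of 0.556 counts per library lay under the floor of 3 counts.

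Within the microRNA hosts, 3 of the 12 passed as lower with MAPKi, of which 2 met the count minimum in both pretreatments. MIR222HG, the host of miR-221 and miR-222 at chrX:45745210-45770274 (GRCh38, minus strand), measured 58.5, 59.9 and 47.7 CPM in DMSO vehicle libraries at 1 h and 17.5, 21.3 and 12.2 CPM in MAPKi libraries. At 5 h it measured 83.1, 74.1 and 63.5 against 10.6, 7.62 and 5.14 CPM. The groups did not overlap at either time, and the log2 change was -2.67 ± 0.16 (edgeR adjusted p = 8.62e-26). MIR17HG, the host of the miR-17 to miR-92 cluster at chr13:91347686-91397592 (plus strand), measured 39.7, 38.7 and 33.1 CPM in DMSO and 6.44, 5.43 and 8.15 CPM in MAPKi at 1 h, a change of -1.83 ± 0.18 over 1 to 5 h. MIR100HG, the host of miR-100, let-7a and miR-125b at chr11:122028325-122556721 (minus strand), met the count minimum through DMSO cells alone, and went from 11.5, 9.98 and 5.97 CPM to 3.64, 0.652 and 1.55 CPM at 1 h, a log2 difference of -2.37. All MAPKi libraries of the 3 hosts lay below all DMSO libraries at 1 h.

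A host with a shared seed was higher in MAPKi cells, though it met the count minimum through those cells alone. MIR99AHG, the host of miR-99a and let-7c, measured 3.23, 2.56 and 2.69 CPM in DMSO vehicle libraries at 1 h and 9.25, 10.2 and 7.53 CPM in MAPKi libraries. Its log2 difference was 1.67, beside -2.37 for MIR100HG, whose miR-100 carries the same seed ACCCGUA. MIRLET7BHG, the host of let-7a and let-7b, changed by 0.20 ± 0.17 and did not pass the test (edgeR adjusted p = 0.301). MIR34AHG, the host of the p53-regulated miR-34a, also met the minimum through MAPKi cells alone, with means of 1.05 CPM in DMSO and 3.47 CPM in MAPKi at 1 h, where the libraries overlapped, and of 2.08 and 6.21 CPM at 5 h, where they did not. The 4 hosts at the minimum in both pretreatments that rose, MIR1915HG, MIR4458HG, MIR548XHG and MIR762HG, changed by 0.59 to 0.92.

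The promoters of the members were searched for 3 motifs on both strands, in windows from 250 bases before to 50 bases after the RefSeq start (GRCh38.p14), and 188 of 276 members had such a window. The AP-1 motif TGANTCA, bound by factors downstream of MAPK signalling, was in 11.4% of the windows of members lower with MAPKi (4 of 35) and in 1.85% of those higher (2 of 108). It was in 4.87% of the windows of all tested genes that had one and in 7.76% of all 27305 windows. The ETS motif CCGGAAG was in 8.57% of the windows of lower members (3 of 35), 17.6% of those of higher members (19 of 108), 18.3% of those of tested genes and 10.7% of all windows. The E-box CACGTG was in 5.71% and 5.56% of the windows of lower and higher members, beside 9.87% of tested genes and 7.43% of all. These counts are small and include members chosen through 1 pretreatment, and a match is a description of the sequence, not a bound site.

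Both windows below belong to members that were lower with MAPKi and held the AP-1 motif, and were named after their values were seen. The capitals mark the motifs. DLGAP1-AS2 measured 10.2, 12.7 and 14.7 CPM in DMSO and 3.97, 7.39 and 6.4 CPM in MAPKi vehicle libraries at 1 h, with no overlap and a log2 change of -1.02 ± 0.20 (edgeR adjusted p = 5.68e-06). LINC02709 measured 7.38, 6.7 and 8.19 CPM against 3.8, 3.26 and 2.79 CPM, also without overlap, and met the count minimum through DMSO cells alone.
DLGAP1-AS2, chr18:3603487-3603786, plus strand, AP-1 and E-box: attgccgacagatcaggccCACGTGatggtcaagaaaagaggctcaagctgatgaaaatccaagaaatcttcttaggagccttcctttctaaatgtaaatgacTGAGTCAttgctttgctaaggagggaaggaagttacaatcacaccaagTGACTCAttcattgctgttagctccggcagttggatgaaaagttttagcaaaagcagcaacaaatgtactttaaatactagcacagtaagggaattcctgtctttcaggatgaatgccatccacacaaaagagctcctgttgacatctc
LINC02709, chr11:9759484-9759783, minus strand, AP-1: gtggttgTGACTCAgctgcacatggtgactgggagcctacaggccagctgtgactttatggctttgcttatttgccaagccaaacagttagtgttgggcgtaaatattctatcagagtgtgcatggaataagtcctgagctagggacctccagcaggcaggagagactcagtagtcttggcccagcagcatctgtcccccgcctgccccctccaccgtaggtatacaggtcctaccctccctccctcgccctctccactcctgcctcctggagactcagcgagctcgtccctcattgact
The motif matches in DLGAP1-AS2 begin 147 and 99 bases before the start and 231 bases before it for the E-box, and in LINC02709 243 bases before it.

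Antisense and intronic members could be set beside the gene they are named after. Of 161 such members, 144 had a partner gene that was tested. For 136 antisense members, 43 pairs were both higher with MAPKi and 9 both lower, while in 26 the antisense RNA was higher and its partner lower, and in 7 the reverse, with members chosen through 1 pretreatment included. Taken singly, 86 of these antisense RNAs were higher and 18 lower, and 58 of the partners were higher and 50 lower. Whether the pairs moved together more often than these totals give was not tested. Across these pairs the changes had a Pearson correlation of 0.17, and reads of overlapping pairs may be shared. Across the 8 intronic RNAs and their hosts the correlation was 0.83. KCNQ5-IT1 and KCNQ5, a potassium channel gene, changed by -2.42 and -2.51, RUNX1-IT1 and the transcription factor gene RUNX1 by 1.04 and 1.76, and GABPB1-IT1 rose by 0.74 while GABPB1 changed by -0.94.

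Cycloheximide alone, compared with vehicle at the same times, changed few of these RNAs at 1 h and many later. At 1 h, over both pretreatments, EPB41L4A-AS1 was the only member that passed (0.39 ± 0.09, edgeR adjusted p = 0.0395), where 0.154% of all genes passed. It did not pass when any replicate number was left out (adjusted p as high as 0.46), and 15 members had an unadjusted p under 0.05. At 3 and 5 h, 51 members were higher and 49 lower in DMSO cells, beside 18.3% of all genes higher and 13.5% lower and 22.6% and 17% of the other genes at the same count minimum. In MAPKi cells 37 were higher and 28 lower, beside 15.9% and 13.9% of all genes and 20.1% and 18.3% of those at the same minimum. In both pretreatments 22 were higher, which was 43.1% of those higher in DMSO cells and 59.5% of those higher in MAPKi cells. A further 14 were lower in both, 28.6% and 50% of the respective lists. The same overlap was not counted over all genes, so it is not a trait of these RNAs.

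LINC00673, an intergenic RNA that GENCODE v44 does not list under this symbol, accumulated in cycloheximide. In DMSO cells it measured 219, 232 and 243 CPM after 5 h of cycloheximide and 24.5, 31.9 and 37.6 CPM in vehicle. In MAPKi cells it measured 102, 114 and 104 against 26.2, 25.9 and 24.8 CPM. No library overlapped, and the log2 changes over 3 and 5 h were 2.38 ± 0.12 in DMSO cells and 1.81 ± 0.12 in MAPKi cells (edgeR adjusted p = 6.08e-30 and 8.36e-23). The difference between the pretreatments was -0.57 ± 0.16 (edgeR adjusted p = 0.00903), and without replicate 3 it did not pass (adjusted p = 0.14). RARA-AS1 was also higher in both pretreatments (1.59 ± 0.37 and 1.33 ± 0.30), and in DMSO cells SLCO4A1-AS1 rose by 2.14 ± 0.38, with 13, 13.6 and 10.7 CPM after 5 h of cycloheximide and 2.03, 1.91 and 2.82 CPM in vehicle.

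EPB41L4A-AS1, an antisense RNA at chr5:112160526-112164818 (GRCh38, plus strand) whose span holds the small nucleolar RNA gene SNORA13, had the smallest p among the members for a difference between the pretreatments. In DMSO cells it reached 259, 257 and 265 CPM after 5 h of cycloheximide, against 31.7, 43.6 and 44.7 CPM in vehicle. The MAPKi libraries reached 93.2, 92.8 and 97.5 against 42.2, 52.3 and 47.5 CPM. The groups did not overlap in either pretreatment, the changes were 2.34 ± 0.09 and 0.71 ± 0.09, and the difference of -1.63 ± 0.13 had an edgeR adjusted p of 1.37e-17. ZFPM2-AS1 likewise rose in DMSO cells (1.19) and changed by -0.29 in MAPKi cells, with a difference of -1.49 ± 0.27. Spliced transcripts of some host genes of small nucleolar RNAs, such as GAS5 and ZFAS1, are known to be degraded through translation, and 7 were listed for that reason. All 7 were higher with cycloheximide in DMSO cells and 5 in MAPKi cells, beside 18.3% and 15.9% of all genes. For 6 the change was smaller in MAPKi cells by the test of the difference, which was negative for 6.59% of all genes.

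For 3 members the change passed in opposite directions in the 2 pretreatments. RUNX1-IT1 measured 32.4, 31.6 and 30.1 CPM after 3 h of cycloheximide and 17.9, 14.5 and 12.9 CPM in vehicle in DMSO cells. In MAPKi cells it measured 17.1, 11.2 and 8.32 against 22.5, 40.6 and 24.1 CPM. The groups did not overlap at 3 h, whereas at 5 h they overlapped in DMSO cells (39.7, 28.3 and 25.2 against 16.7, 31.3 and 19.9 CPM) and not in MAPKi cells (15.6, 13.1 and 14.9 against 30.9, 32.6 and 29.8 CPM). The changes over 3 and 5 h were 0.76 ± 0.18 and -1.17 ± 0.18, and the difference of -1.93 ± 0.25 (edgeR adjusted p = 6.57e-09) held under every alternative. FAM198B-AS1, named after its values were seen, changed by -0.73 ± 0.19 and 0.82 ± 0.17, with 6.67, 3.79 and 5.14 CPM against 13.1, 12.8 and 12.8 CPM in vehicle in DMSO cells at 5 h, and 27.7, 28.7 and 28.7 against 12.9, 17 and 14.1 CPM in MAPKi cells. ATP6V1B1-AS1, also named after its values were seen, changed by -0.64 ± 0.15 and 0.46 ± 0.15, and the rise in MAPKi cells did not pass without replicate 1 or 3 (edgeR adjusted p = 0.193 and 0.112). Over all members, 14 differed upward and 19 downward between the pretreatments, beside 4.64% and 6.59% of all genes.

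**Figure D3:**
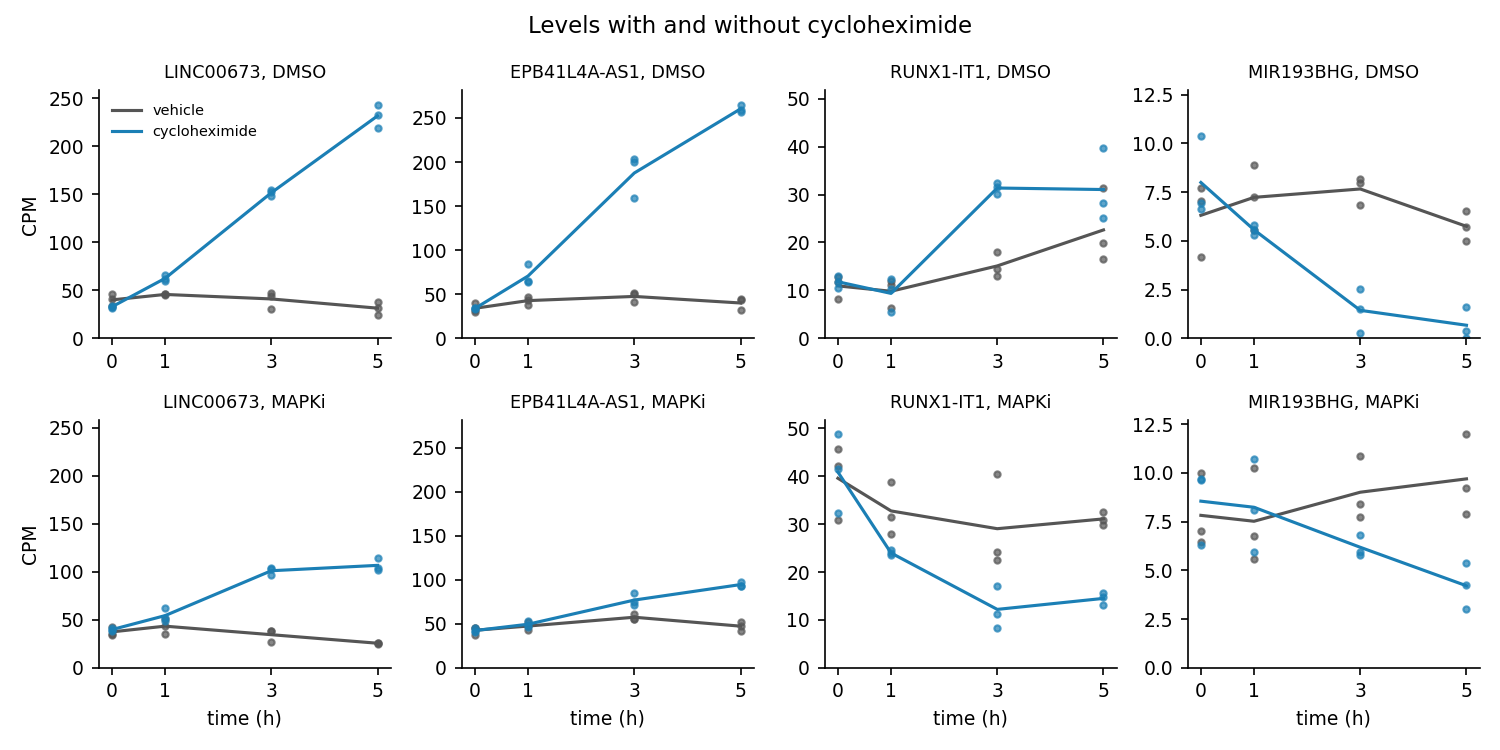
CPM against time (h) in vehicle (grey) and cycloheximide (blue) for LINC00673, EPB41L4A-AS1, RUNX1-IT1 and MIR193BHG in DMSO cells (top) and MAPKi cells (bottom), with points for libraries, lines for means of 3 and a common axis from 0 within each column. EPB41L4A-AS1 reached 260 CPM in DMSO cells and 94.5 CPM in MAPKi cells at 5 h, and RUNX1-IT1 moved up in the former and down in the latter.

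Most of the microRNA hosts fell in cycloheximide in DMSO cells. There 9 of the 12 hosts were lower and 1 higher, beside 13.5% and 18.3% of all genes. The median was -0.71 over the hosts and 0.05 over all 276 members. In MAPKi cells 2 of the 12 hosts were lower, beside 13.9% of all genes. Without replicate 1, 6 hosts were lower in DMSO cells. MIR193BHG, the host of miR-193b at chr16:14301389-14331067 (GRCh38, plus strand), measured 1.63, 0 and 0.374 CPM after 5 h of cycloheximide and 6.53, 5.72 and 4.97 CPM in vehicle in DMSO cells. The MAPKi libraries measured 3.04, 4.23 and 5.35 against 7.87, 9.22 and 12 CPM. The groups did not overlap, with changes of -2.75 ± 0.31 and -0.87 ± 0.24, and the difference of 1.88 ± 0.40 did not pass without replicate 3 (edgeR adjusted p = 0.06). MIR34AHG changed by -2.62 ± 0.42 in MAPKi cells, and in DMSO cells its 6 cycloheximide libraries at 3 and 5 h held 4 counts in all, 4.69% of the vehicle level (95% exact binomial interval 1.25% to 12.5%, counting error only). MIRLET7BHG changed by -1.19 ± 0.21 in DMSO cells and by 0.04 ± 0.20 in MAPKi cells, where it did not pass.

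After triptolide the median of these RNAs fell further than that of other genes at the same count minimum. Levels in the triptolide arms are given as CPM scaled to 36 genes whose share of the library rose under triptolide (stable-gene-scaled CPM), of which 1, GAS6-AS1, is a member. Between 0 h and the mean of 3 and 5 h of triptolide, 138 of 276 members (50%) fell and 0 rose in DMSO cells, beside 45.2% and 1.31% of all genes. In MAPKi cells 164 (59.4%) fell and 1 rose, beside 55.2% and 1.45%. Of the other genes at the same count minimum 55.1% and 68.1% fell, a larger share than over all 276 members. Of the 193 members at the minimum in both pretreatments, 60.1% fell in DMSO cells and 67.4% in MAPKi cells. The share over all 276 thus depends on the members chosen through 1 pretreatment. The median log2 change of the members was -0.60 in DMSO cells and -0.73 in MAPKi cells, against -0.44 and -0.60 over all genes. The median member kept 56.5% ± 2.28 of its 0 h level in the same arm after 5 h in DMSO cells and 51.6% ± 1.70 in MAPKi cells (SD over 3 replicates), against 69.3% ± 3.54 and 60.1% ± 1.27 for the 10677 other genes at the same count minimum.

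The size of these losses depends on the scaling. With TMM over all genes, which moves the median of all genes by 0.44 in DMSO cells and 0.66 in MAPKi cells, 10 members rose and 77 fell in DMSO cells, and 20 rose and 63 fell in MAPKi cells. The 1 member that rose in MAPKi cells, HOXD-AS2 (0.57 ± 0.24, edgeR adjusted p = 0.0376), did not pass without replicate 1 or 2 (adjusted p = 0.12 and 0.37), and its change was -0.03 with vehicle 0 h libraries as the initial level. Without the shallowest library, replicate 2 of MAPKi triptolide at 0 h, 139 members fell and 0 rose.

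The intronic RNAs were lost far more than their host genes. All 8 fell in both pretreatments, with median log2 changes of -3.58 in DMSO cells and -2.64 in MAPKi cells (the same with NPTN-IT1 and BIN3-IT1 set at the floor of 3 counts in DMSO cells), and each had a lower value than its host mRNA, whose medians were -0.39 and -0.47. Under TMM all 8 fell in DMSO cells and 6 in MAPKi cells, and leaving out replicate 2 or 3 left 7 in MAPKi cells, since KCNQ5-IT1 did not pass there (edgeR adjusted p = 0.14 and 0.12). After 5 h the median intronic RNA kept 6.92% of its level in DMSO cells and 12.1% in MAPKi cells. These are counts at the intronic annotation in cytoplasmic RNA, and whether the counting used strand was not stated.

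NPTN-IT1, within an intron of the cell adhesion gene NPTN at chr15:73567012-73569294 (GRCh38, minus strand), was lost late. In DMSO cells it measured 10.8, 7.11 and 9.19 stable-gene-scaled CPM at 0 h of triptolide, 14.1, 8.56 and 7.76 at 1 h, 0.415, 0.318 and 0.601 at 3 h, and 0, 0.229 and 0 at 5 h. In MAPKi cells it measured 7.87, 8.31 and 11.1 at 0 h, 2.19, 4.12 and 3.69 at 3 h, and 1.56, 1.17 and 0.769 at 5 h. The levels of NPTN-IT1 at 3 and 5 h all lay below those at 0 h, and at 3 and 5 h all MAPKi libraries lay above all DMSO libraries. In DMSO cells the 6 libraries at 3 and 5 h held 14 counts of NPTN-IT1, under the floor of 3 per library, which put its level at 2.64% of that at 0 h (95% exact binomial interval 1.41% to 4.57%, counting error only). In MAPKi cells the change was -2.20 ± 0.29. The test of the difference passed (edgeR adjusted p = 1.04e-05) under every alternative. The size of this difference, listed only among the flagged results, depends on the prior count because of the few counts in DMSO cells. The host mRNA changed by -0.17 and -0.30.

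RUNX1-IT1 also differed between the pretreatments. It went from 16.4, 18 and 12 stable-gene-scaled CPM at 0 h to 0.107, 0.229 and 0.182 at 5 h of triptolide in DMSO cells. The MAPKi libraries went from 43.2, 76.2 and 38.7 to 2.81, 2.94 and 3.85. The time points did not overlap, and 1.12% ± 0.40 remained in DMSO cells against 6.07% in MAPKi cells. The changes were -5.67 ± 0.34 and -3.08 ± 0.22, the difference was 2.59 ± 0.47, with 1, 2 and 2 counts in the DMSO libraries at 5 h (edgeR adjusted p = 9.95e-05) and it held under every alternative, including without the shallowest library, which held the highest 0 h value.

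The other intronic RNAs varied in how much was left. ASAP1-IT1, within the gene of an Arf GTPase-activating protein, kept 2.59% after 5 h in DMSO cells and 4.28% in MAPKi cells, while ASAP1 changed by -0.21 and -0.10 on the log2 scale. KIRREL1-IT1 kept 12.1% and 5.1%, and SND1-IT1 21% and 19.7%. GABPB1-IT1, within the gene of a subunit of the GABP transcription factor, kept 36.7% and 43.4%, the most among the 8, and BIN3-IT1 kept 3.61% and 9.74%.

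**Figure D4:**
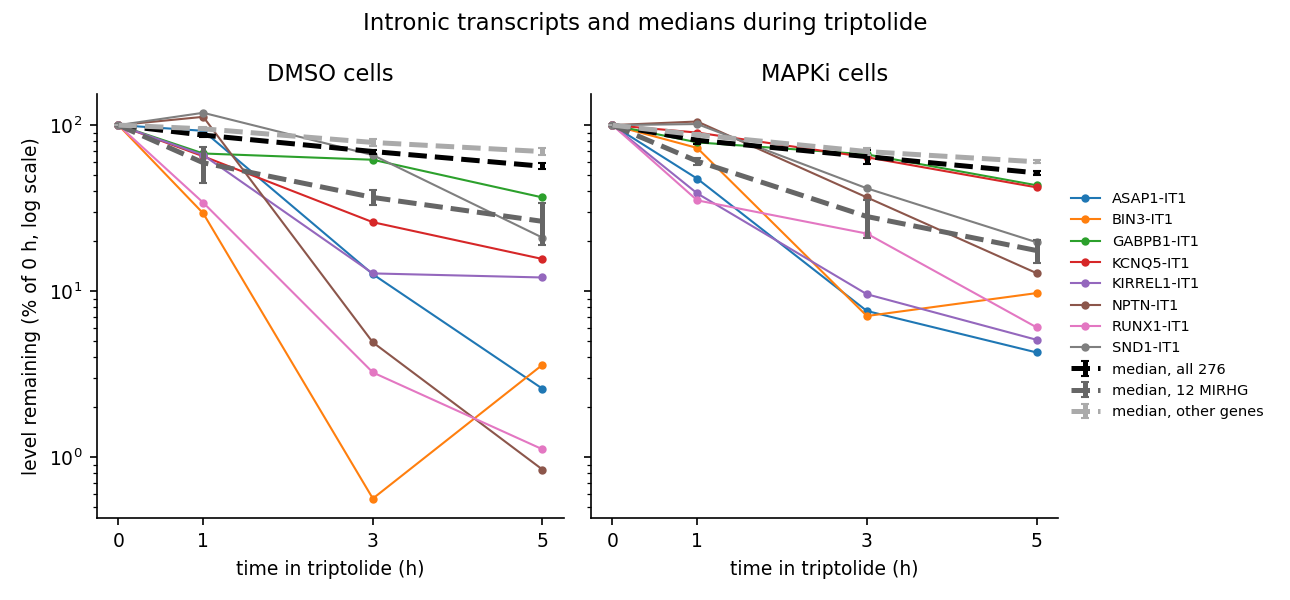
Level remaining (% of the 0 h triptolide libraries, log axis) against hours in triptolide for the 8 intronic RNAs (coloured lines, means of 3 libraries) and, as dashed lines with SD over 3 replicates, the medians of all 276 members, of the 12 microRNA hosts and of the other genes at the same count minimum. At 5 h NPTN-IT1 is at 0.844% and RUNX1-IT1 at 1.12% in DMSO cells, far below the medians of 56.5% and 69.3%.

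The microRNA hosts were the other kind with large losses. In DMSO cells 10 of 12 fell and in MAPKi cells 11 of 12, with median changes of -1.73 and -2.30, which were the same with the members under the floor set at it, and 26.3% and 17.6% of the level remaining at 5 h. Under TMM 7 fell in each pretreatment and 1 rose in MAPKi cells. MIR222HG measured 54.4, 51.8 and 37.3 stable-gene-scaled CPM at 0 h of triptolide in DMSO cells, 11.4, 7.18 and 7.98 at 1 h and 0.322, 0.229 and 0.274 at 5 h. MIR17HG fell faster still, from 24.2, 22.4 and 14.1 at 0 h to 0.723, 0.605 and 1.72 at 1 h, so that 5.02% ± 3.04 of it and 18.5% ± 4.67 of MIR222HG remained after 1 h. The libraries at 1 h lay below those at 0 h for both hosts, and the change of MIR17HG over 3 and 5 h was -4.65 ± 0.30 (edgeR adjusted p = 1.31e-23). MIR222HG held 17 counts in the 6 libraries at 3 and 5 h, under the floor of 3 per library, or 0.621% of its 0 h level (95% exact binomial interval 0.360% to 1.00%). MIRLET7BHG changed by -4.14 ± 0.30 in DMSO cells and -5.51 ± 0.32 in MAPKi cells. At the other end MIR548XHG was at 122% of its 0 h level after 5 h in DMSO cells and at 60.8% in MAPKi cells.

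Among other members, the loss of HSD17B1-AS1 differed between the pretreatments. This antisense RNA lies at chr17:42552431-42554841 (GRCh38, minus strand), opposite HSD17B1, a gene of oestradiol synthesis. In DMSO cells it measured 22.5, 20.2 and 20.3 stable-gene-scaled CPM at 0 h and 6.11, 2.4 and 4.29 at 5 h of triptolide. In MAPKi cells it measured 34.6, 73.3 and 32.5 at 0 h and 2.08, 1.59 and 0.769 at 5 h. The 5 h libraries lay below the 0 h libraries in both, and for HSD17B1-AS1 the difference of the changes was -2.26 ± 0.36 (edgeR adjusted p = 1.04e-05), which held under every alternative. Over all members the loss was smaller in MAPKi cells for 5 and larger for 5, beside 0.421% and 3.85% of all genes, and 7 of these 10 calls did not pass without replicate 1 nor without replicate 2. Without replicate 1 and without replicate 2 the edgeR adjusted p was 0.361 and 0.161 for TP73-AS1, 0.411 and 0.179 for EXOC3-AS1, 0.0992 and 0.352 for ST20-AS1, and 0.0711 and 0.338 for ATXN7L3-AS1. It was 0.0835 and 0.108 for EPB41L4A-AS1, 0.202 and 0.478 for OTUD6B-AS1, and 0.184 and 0.439 for WAC-AS1 (edgeR). Scaled by mitochondrial rRNA, 3 were smaller and 32 larger, and under TMM 9 were smaller and 2 larger.

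When translation was stopped along with transcription, some of the noncoding RNAs were kept at higher levels. A smaller share of them passed the test than of other genes, but their median change was not smaller. At 3 and 5 h, 68 members (24.6%) were higher and 1 lower with both inhibitors than with triptolide alone in DMSO cells, beside 28.4% and 0.468% of all genes. In MAPKi cells 93 (33.7%) were higher and 2 lower, beside 41.4% and 0.535%. Of the other genes at the same count minimum 36.4% and 53.5% were higher, and of the 193 members at the minimum in both pretreatments 30.1% and 39.9%. The median log2 change was 0.27 over the 276 members and 0.22 over these other genes in DMSO cells. In MAPKi cells it was 0.35 and 0.34. In both pretreatments 45 members were higher, 66.2% of the list of DMSO cells and 48.4% of that of MAPKi cells. This overlap, too, was not counted over all genes. After 5 h with both inhibitors the median member kept 70.9% ± 4.62 and 79.1% ± 6.84 of its level, against 82.5% ± 3.34 and 90.1% ± 1.85 for the other genes. Under TMM, which moves the median of all genes by -0.23 and -0.38, 33 members were higher and 6 lower in DMSO cells, and 38 and 18 in MAPKi cells.

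By kind, 42 of 153 AS and 23 of 103 LINC members were higher in DMSO cells and 56 and 31 in MAPKi cells, beside 1 of the 8 IT members in each and 2 and 5 of the 12 microRNA hosts. LINC00673 measured 13.7, 5.03 and 6.11 stable-gene-scaled CPM after 5 h of triptolide and 40.5, 39.5 and 32.8 with both inhibitors in DMSO cells. In MAPKi cells it measured 10.4, 10.3 and 13.4 against 45.4, 42.7 and 48.8, so the arms did not overlap in either. A1BG-AS1, antisense to A1BG, measured 2.36, 1.83 and 1.09 against 7.45, 6.79 and 6.56 in DMSO cells, and 1.66, 1.93 and 2.15 against 5.73, 10.2 and 8.78 in MAPKi cells, again without overlap. After 5 h with both inhibitors the median intronic RNA kept 7.06% in DMSO cells and 13.3% in MAPKi cells, and 6.92% and 12.1% with triptolide alone.

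**Figure D5:**
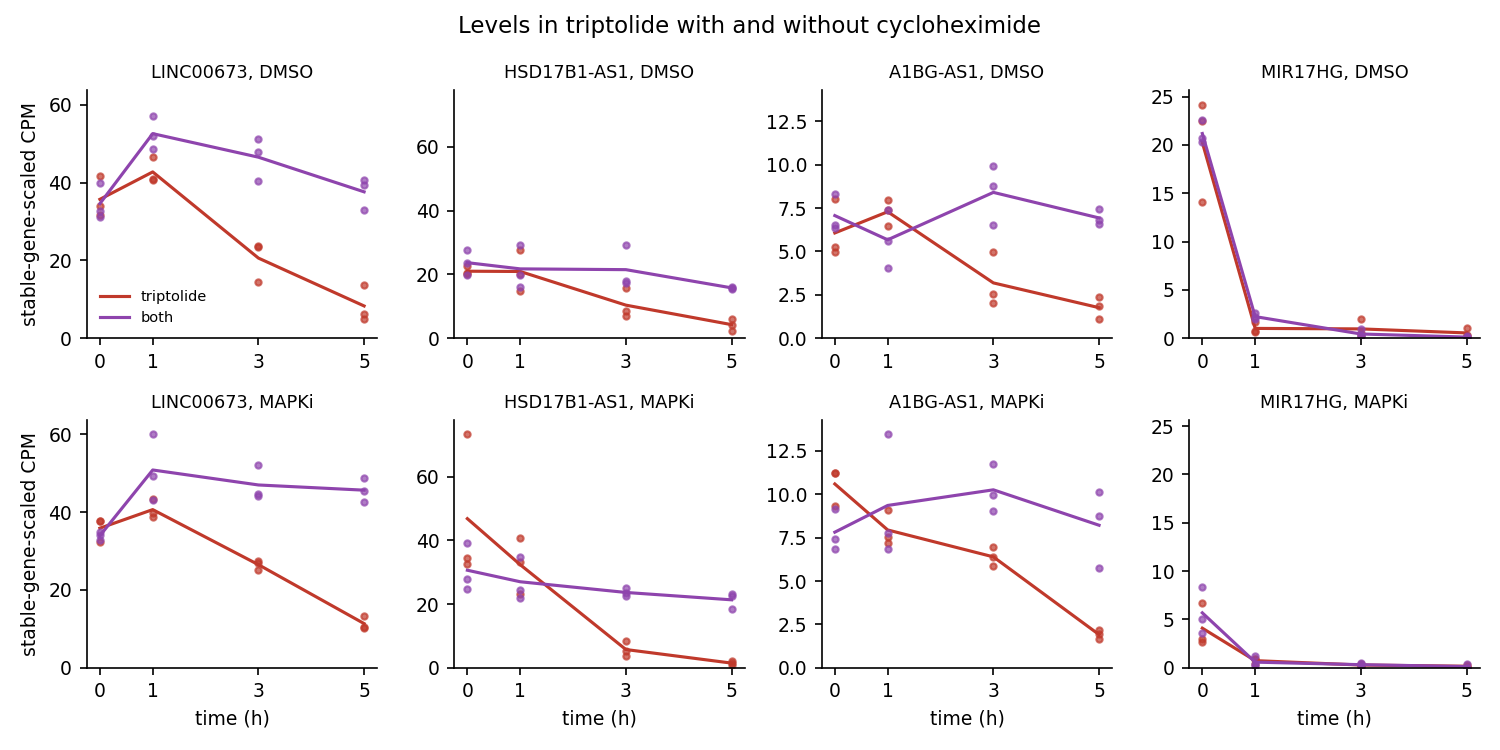
Stable-gene-scaled CPM against time (h) in triptolide (red) and with both inhibitors (purple) for LINC00673, HSD17B1-AS1, A1BG-AS1 and MIR17HG in DMSO cells (top) and MAPKi cells (bottom), with points for libraries, lines for means of 3 and a common axis from 0 within each column. The arms separate at 3 and 5 h for LINC00673, HSD17B1-AS1 and A1BG-AS1, while MIR17HG fell to 1.02 and 2.24 by 1 h in DMSO cells in the 2 arms.

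The study's index of translation-dependent decay is the level kept with both inhibitors minus that kept with triptolide alone, as a fraction of the initial level, averaged here over 3 and 5 h. The initial level here was that of the vehicle libraries at 0 h, which also chose the members. Its median over members was 0.120 ± 0.011 in DMSO cells (SD, n = 3), against 0.122 ± 0.035 for the other genes, and in MAPKi cells it was 0.150 ± 0.016 against 0.185 ± 0.010. With the triptolide libraries at 0 h as the initial level the medians in DMSO cells were 0.123 ± 0.015 and 0.126 ± 0.038. On the first basis it was -0.011 ± 0.020 for the intronic RNAs and 0.014 ± 0.027 for the microRNA hosts in DMSO cells, and 0.028 ± 0.036 and 0.076 ± 0.019 in MAPKi cells. LINC00673 had an index of 0.644 ± 0.068 in DMSO cells and 0.688 ± 0.113 in MAPKi cells. OTUD6B-AS1 had 0.206 ± 0.047 and 0.381 ± 0.044, and MIR222HG 0.019 ± 0.020 and 0.016 ± 0.012.

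The effect of cycloheximide under triptolide differed between the pretreatments for 8 members, being larger in MAPKi cells for 6 and smaller for 2, beside 6.82% and 0.294% of all genes. HSD17B1-AS1 measured 15.7, 15.6 and 16.2 stable-gene-scaled CPM with both inhibitors at 5 h in DMSO cells and 18.4, 23 and 22.6 in MAPKi cells, set against the triptolide values given above. Its difference between the pretreatments was 1.47 ± 0.31 (edgeR adjusted p = 0.000559) and held under every alternative. For MIR100HG, which met the count minimum through DMSO cells alone, the difference was 1.96 ± 0.51 (edgeR adjusted p = 0.00733), and without replicate 2 it did not pass (adjusted p = 0.79). Its size rests on at least 1 group with a mean under 3 counts per library and depends on the prior count. Under TMM 4 members had a larger and 5 a smaller effect in MAPKi cells.

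The vehicle libraries changed little with time. Between 1 and 5 h, over both pretreatments, 12 members were higher and 6 lower, while 5.28% of all genes changed in either direction. The microRNA hosts held 4 of the members that rose and 1 that fell. MIRLET7BHG rose by 0.91 ± 0.21 (edgeR adjusted p = 0.00288), and without replicate 3 it did not pass (adjusted p = 0.1). KIRREL1-IT1 went from 12.6, 14 and 10.9 CPM at 1 h to 32, 37.6 and 28.5 CPM at 5 h in DMSO cells and from 13.6, 16.3 and 13 to 20.9, 22.1 and 13.3 CPM in MAPKi cells, where the times overlapped, with a change of 0.89 ± 0.18 (edgeR adjusted p = 0.000609). Leaving out a replicate number left 4 to 7 members in place of 18.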

How the data were processed

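Cytoplasmic RNA of 96 libraries was sequenced from 3′ ends (QuantSeq). The authors deposited 1 table of raw counts per gene, made according to the submitters' processing notes with fastp 0.20.1, HISAT2 2.2.1 and HTSeq 0.13.5 on GRCh38.p13, and whether counting used strand is not given in the sources used here. Every column belonged to 1 sample. From the counts, edgeR 4.0.16 (R 4.3.3) fitted 32 group means over all 96 libraries by quasi-likelihood for the 14948 genes that passed filterByExpr. Tests were two-sided, with Benjamini-Hochberg adjustment over all genes and a threshold of 0.05. Library sizes were scaled by TMM, or for triptolide contrasts by DESeq2 1.42.0 size factors over 36 stable genes, whose share of counts after 3 and 5 h of triptolide was at least 1.1 times that of the vehicle library at 0 h in every replicate of both pretreatments. Those vehicle libraries also chose the members, and so entered the triptolide scaling and the shared estimate of spread, though no contrast. The members and all lists were chosen with earlier results of these data known.

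Contrasts averaged the harvest times named. The level remaining was relative to the mean of the same arm's 3 libraries at 0 h. Named members were, per comparison, the 5 largest changes in each direction (3 for interactions) among those past the threshold, moving alike in all 3 replicate numbers and with at least 3 counts per library on both sides, plus a list of known noncoding RNAs. Coordinates and overlaps came from GENCODE v44 by symbol and sequences from RefSeq. The fit was tested on simulated data. Tables and plots used Python 3.11.15, pandas 2.3.3, numpy 2.4.6 and matplotlib 3.10.9. Totals of 2381351 to 12520154 counts mean that a member at 20 counts carries large counting error. Alternatives covered scaling, the low-count filter, DESeq2, the initial level, the libraries fitted, a replicate block and leaving out each replicate, and 2 kinds (stable genes without members, and without the shallowest library) were chosen after seeing the data. The count columns of a replicate number shared a prefix in every group. Whether the numbers pair the libraries was not stated, and they were not taken to pair them.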

Additional observations from a re-analysis of the deposited data

Results flagged for a closer look

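Among the members named by the rule or in the text, 32 had a difference of effect between MAPKi and DMSO cells that passed the interaction test of edgeR. These are 22 of the 33 members that passed for cycloheximide, and all 10 and 8 that passed for triptolide and for cycloheximide under triptolide. Groups of 3 libraries were not tested for single outlying values. Values are log2 differences, the change in MAPKi cells minus that in DMSO cells.

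For cycloheximide against vehicle at 3 and 5 h, the change was more positive in MAPKi cells for LINC02606 (2.28), MIR193BHG (1.88), MIR100HG (1.58), FAM198B-AS1 (1.55), KCNQ5-IT1 (1.23), KIRREL1-IT1 (1.22), MIRLET7BHG (1.22), ATP6V1B1-AS1 (1.11), MIR1915HG (0.91), HSD17B1-AS1 (0.74) and ATP2A1-AS1 (0.71). It was more negative for RUNX1-IT1 (-1.93), EPB41L4A-AS1 (-1.63), ZFPM2-AS1 (-1.49), KANSL1L-AS1 (-1.13), LINC00641 (-1.11), LINC00174 (-1.07), MIR548XHG (-0.98), LINC00472 (-0.92), CKMT2-AS1 (-0.67), SND1-IT1 (-0.64) and LINC00673 (-0.57).

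For triptolide at 3 and 5 h against 0 h, the difference was positive for NPTN-IT1 (3.33), RUNX1-IT1 (2.59), TP73-AS1 (1.53), EXOC3-AS1 (1.39) and EPB41L4A-AS1 (0.71). It was negative for HSD17B1-AS1 (-2.26), ST20-AS1 (-1.91), ATXN7L3-AS1 (-1.89), WAC-AS1 (-0.79) and OTUD6B-AS1 (-0.55).

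For cycloheximide under triptolide at 3 and 5 h, the difference was positive for ASAP1-IT1 (2.49), RARA-AS1 (2.06), MIR100HG (1.96), HSD17B1-AS1 (1.47), WAC-AS1 (0.52) and OTUD6B-AS1 (0.48), and negative for LINC02832 (-1.53) and EPB41L4A-AS1 (-0.58). Some of these sizes rest on at least 1 group with a mean under 3 counts per library and depend on the prior count. They are those for NPTN-IT1 and RUNX1-IT1 under triptolide and for ASAP1-IT1, RARA-AS1 and MIR100HG here.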

How the results depend on the processing

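Scaling moved the triptolide counts most. Under TMM the members called were 87 in DMSO cells and 83 in MAPKi cells for triptolide, and 39 and 56 for cycloheximide under triptolide. With total counts they were 99 for triptolide in MAPKi cells, and 42 and 58 for cycloheximide under triptolide in DMSO and MAPKi cells. For the difference of triptolide effects, mitochondrial rRNA gave 35, only the groups compared 3, vehicle 0 h as initial level 6 and leaving out the shallowest library 4. For the difference of cycloheximide effects under triptolide, only the groups compared gave 1. Cycloheximide at 1 h gave 0 without the low-count filter, 0 with only the groups compared and 0 without any replicate number. Leaving out a replicate number gave 15 to 26 members for the MAPKi by cycloheximide difference, 3 to 12 for the MAPKi by triptolide difference, 2 to 7 for that of cycloheximide under triptolide, 44 to 61 for cycloheximide under triptolide in DMSO cells and 4 to 7 for time in vehicle. The other counts stayed within 1.5 times of the reported ones. Among named members, signs turned for triptolide in MAPKi cells under TMM in ATP2A1-AS1 (0.17), EPB41L4A-AS1 (0.29), LINC00467 (0.31), LINC02780 (0.23) and OIP5-AS1 (0.13), and with total counts in EPB41L4A-AS1 (0.0055) and LINC00467 (0.023). They turned for cycloheximide under triptolide in MAPKi cells under TMM in CKMT2-AS1 (-0.0020), LINC02780 (-0.18) and OIP5-AS1 (-0.36), and with total counts in LINC02780 (-0.021) and OIP5-AS1 (-0.20). HOXD-AS2 turned to -0.030 with vehicle 0 h as initial level, and ATP6V1B1-AS1 (0.050) and LINC02780 (0.062) turned for MAPKi when the inhibitor arms at 0 h were compared. Of 348 calls on named members, 203 held under every alternative run. Beyond what scaling does by construction, the cause was not tested. With a replicate block 209 members were called for MAPKi, 139 and 163 for triptolide and 12 for their difference, and no count moved by over 1.5 times. Over all groups, same-numbered libraries had a median correlation of deviations of 0.043, against -0.019 for different numbers. Between the vehicle groups of the same time it was 0.277, 0.445 and 0.433 for replicate 3 but ranged from -0.236 to 0.250 for replicates 1 and 2, so not every pair exceeded 0.1 and the numbers were not taken to pair the libraries.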

Other observations

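Noncoding RNAs with other names were set beside the 276 members. Of 28 listed, 24 were tested, and with MAPKi 14 were higher and 7 lower, beside 33.4% and 31.3% of all genes. NEAT1, the scaffold of nuclear paraspeckles, rose by 2.14 on the log2 scale, and MALAT1, a nuclear speckle RNA, by 1.31, whereas CYTOR changed by -1.33. After triptolide 11 of the 24 fell and 0 rose in each pretreatment, while 45.2% of all genes fell in DMSO cells and 55.2% in MAPKi cells. With cycloheximide under triptolide 9 of the 24 were higher in each, beside 28.4% and 41.4% of all genes. With cycloheximide alone at 3 and 5 h, 6 of the 24 were higher and 1 lower in DMSO cells, beside 18.3% and 13.5% of all genes. In MAPKi cells 3 of the 24 were higher and 8 lower, beside 15.9% and 13.9% of all genes. PVT1 rose with cycloheximide by 1.15 in DMSO cells and 1.30 in MAPKi cells.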
